A study of Mus musculus with 92 samples.

Results

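Transcripts of 8 transcription factor genes that set and maintain the identity of the intestinal epithelium were described: the caudal-type homeobox genes Cdx1 and Cdx2, the nuclear receptor genes Hnf4a and Hnf4g, the zinc-finger genes Gata4 and Gata6, and the Krüppel-like factor genes Klf4 and Klf5. They were taken by gene name from the raw count tables and are 8 of 54532 gene identifiers. All 8 passed the filter on low counts in all 23 comparisons. The study sequenced polyadenylated RNA from mouse small intestine, organoids and fetal spheroids in which Eif4g2, a translation initiation factor gene related to eIF4G, was deleted by CreER (a Cre recombinase switched on by tamoxifen), and from organoids given A-485, an inhibitor of the acetyltransferases p300 and CBP.

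Every group carried a CreER allele. Crypts and villi of Eif4g2(flox/flox), Rosa26(CreER) mice (4 crypt and 5 villus libraries, homozygous deletion) were compared with those of Eif4g2(flox/+), Rosa26(CreER) mice (5 and 5, heterozygous deletion), all given tamoxifen and labelled Day 9. Rosa26 drives CreER in all cell types. Crypts and villi of Eif4g2(flox/flox), Vil1(CreER) mice (3 and 6) were compared with those of Eif4g2(flox/+), Vil1(CreER) mice (4 and 4) given tamoxifen at 100 mg/kg daily for 4 days per the labels and labelled 3 Months. Vil1 drives CreER in the intestinal epithelium only. The tissue controls thus also lost 1 copy of Eif4g2, and the age of the animals is not given in the sources used here. The first organoid set held 3 flox/flox Rosa26(CreER) lines, each with DMSO and with 0.5 µM 4-hydroxytamoxifen (4-OHT) for 24 h, then cultured for 6 days. In the second organoid set all libraries had 4-OHT at 0.5 µM for 24 h, then 6 days of culture. It compared 4 flox/flox, 4 flox/+ and 4 CreER-only lines with wild-type Eif4g2. Fetal spheroids comprised 6 flox/flox and 5 flox/+ lines, each with DMSO and with 4-OHT at the same dose and times. The A-485 series held 4 organoid lines, 1 with wild-type Eif4g2 and 3 flox/flox, none with 4-OHT, each at 0 (DMSO), 3, 5 and 10 µM for 4 days. All cultures were in medium with EGF, Noggin and R-spondin. Each tissue library name ends in a number that a crypt and a villus library can share, and libraries with the same number were taken as 1 animal. The labels do not say so, and p-values measure the spread between these samples. The culture lines are named, and some spheroid lines share a prefix (S9484, S9488, S9612 or S9020).

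In the developing gut, CDX2 directs endoderm to an intestinal rather than a stomach fate, and CDX1, a Wnt-responsive paralog, is richest in crypts. HNF4A and its paralog HNF4G bind the enhancers of enterocyte genes such as those of the brush border and of lipid absorption. GATA4 gives the proximal small intestine its absorptive program and overlaps with GATA6, which is also expressed in crypts. KLF4 is found in differentiated and non-dividing cells and takes part in goblet cell maturation, whereas KLF5 is found in proliferating crypt cells.

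Sequence upstream of 3 of the 8 genes, a CDX, an HNF4 and a KLF gene, was available in RefSeq promoter tables (GRCm38.p6), with 4 start sites. The window of 1 start site lay over an exon and is not shown, so a window need not be the gene's only promoter. Each window runs 5′ to 3′ on the gene's strand from 250 to 51 bases before the annotated start. It lies at chr5:147307300-147307499 (minus strand) for Cdx2, at chr2:163506607-163506806 (plus strand) for Hnf4a and at chr4:55532526-55532725 (minus strand) for Klf4. Capitals mark matches to 6 short motifs searched on both strands.
Cdx2: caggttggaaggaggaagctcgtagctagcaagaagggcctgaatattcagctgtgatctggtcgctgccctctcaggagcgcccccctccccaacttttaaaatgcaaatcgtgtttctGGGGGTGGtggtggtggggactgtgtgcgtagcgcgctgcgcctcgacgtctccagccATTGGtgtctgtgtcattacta
Hnf4a: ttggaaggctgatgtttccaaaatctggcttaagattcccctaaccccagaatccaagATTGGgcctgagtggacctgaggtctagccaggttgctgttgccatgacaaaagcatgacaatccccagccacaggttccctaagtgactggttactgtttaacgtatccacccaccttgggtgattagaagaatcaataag
Klf4: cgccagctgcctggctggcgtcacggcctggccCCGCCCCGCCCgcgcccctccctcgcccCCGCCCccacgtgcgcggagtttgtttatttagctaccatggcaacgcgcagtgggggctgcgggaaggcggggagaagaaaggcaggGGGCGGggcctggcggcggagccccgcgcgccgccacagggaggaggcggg
The motifs were a GATA site (AGATAA), a CDX site (TTTATG), an HNF4 site (CAAAGTCCA), a KLF site (GGGNGTGG), the Sp1 GC box (GGGCGG) and the CCAAT box. The Cdx2 window held 1 KLF match, 130 bases before the start, and 1 CCAAT box on the opposite strand, 72 bases before it. The Hnf4a window held 1 CCAAT box on the opposite strand, 192 bases before the start. The Klf4 window held 4 GC boxes, at 217, 212 and 189 bases before the start on the opposite strand, the first pair overlapping, and at 101 bases on the gene's strand. Its GC content was 76.5%, against 56.5% for Cdx2 and 47.5% for Hnf4a. Of 32851 promoter windows of the same length, 11.9% held the KLF site, 24.6% the GC box, 28.4% the CCAAT box, 8.42% the GATA site, 8.78% the CDX site and 0.295% the HNF4 site. These matches describe the letters of the windows only.

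Total counts per library ran from 8652040 to 37611126, lowest in the A-485 series. The targeted gene followed the labels. Mean Eif4g2 levels, in CPM (read counts scaled to a common library size) after scaling by trimmed mean of M-values (TMM), were 85.8 in homozygous and 350 in heterozygous Rosa26 crypts, 54.6 and 343 in the villi, 237 and 471 in Vil1 crypts and 153 and 390 in Vil1 villi. In the cultures they were 142 with 4-OHT and 730 with DMSO in organoid set 1, 228, 755 and 1214 in flox/flox, flox/+ and CreER-only lines of the second, and 128 with 4-OHT and 907 with DMSO in flox/flox and 527 and 928 in flox/+ spheroids. The lowest single count of a member was 35 reads, for Cdx1 at 10 µM A-485. Crypt and villus libraries held RNA of other cells too, with summed immune markers (9 genes) of 149 to 7215 CPM, whereas in the cultures the immune sum stayed at or below 1.77 CPM. In such bulk libraries, fewer cells of a type and less RNA per cell cannot be told apart. Pan-epithelial markers such as Epcam and Vil1 were detected in all groups.

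All 8 are protein-coding genes, placed here on GRCm38. Cdx1 (ENSMUSG00000024619) lies at chr18:61018862-61036199 on the minus strand and Cdx2 (ENSMUSG00000029646) at chr5:147300805-147307270, also minus. Hnf4a (ENSMUSG00000017950) lies at chr2:163506808-163572910 and Hnf4g (ENSMUSG00000017688) at chr3:3508030-3658052, both on the plus strand. Gata4 (ENSMUSG00000021944) lies at chr14:63198922-63271692 on the minus and Gata6 (ENSMUSG00000005836) at chr18:11052508-11085635 on the plus strand. Klf4 (ENSMUSG00000003032) lies at chr4:55527143-55532466 on the minus and Klf5 (ENSMUSG00000005148) at chr14:99298691-99315036 on the plus strand. Annotated genes on the opposite strand overlap Hnf4a (Hnf4aos, at most 5.48 CPM of the library total) and Gata6 (1010001N08Rik, at most 20), and without a stated strand setting their reads cannot be told apart from the members'.

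Per kilobase of gene model, Hnf4a had the highest mean level of the 8 genes in 20 of 21 groups, with no overlap with the next gene in 12. The exception was heterozygous Vil1 villi, where Hnf4g stood at 223.8 ± 53.1 and Hnf4a at 179.9 ± 22.2 CPM per kilobase (SD, n = 4), with overlapping libraries. In heterozygous Rosa26 crypts, Hnf4a (161.9 ± 15.4) was followed by Cdx1 (131.2 ± 13.9), Cdx2 (99.5 ± 11.1), Klf5 (71.5 ± 7.70), Hnf4g (39.0 ± 6.85), Gata4 (35.5 ± 5.45), Klf4 (25.98 ± 6.50) and Gata6 (18.4 ± 1.05, all SD, n = 5). Only the steps from Cdx2 to Klf5 and from Klf5 to Hnf4g had libraries that did not overlap. The lowest mean belonged to Gata6 in 11 groups and to Klf4 in 9. At 10 µM A-485 it belonged to Cdx1, at 4.39 ± 1.74 CPM per kilobase (SD, n = 4).

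In the heterozygous animals, 5 of the 8 genes were higher in villi than in crypts of Rosa26 mice, and Cdx1 and Klf5 were lower. Of all genes tested, 71.6% were called in either direction, so a called member is the common case here. Klf4 had the largest difference. It stood at 105, 73.2, 73.8, 90.7 and 52.9 CPM in crypts and at 595, 731, 602, 660 and 520 CPM in villi, a log2 fold change of 2.97 (SE 0.29, edgeR adjusted p = 3.58e-08). Every villus library was far above every crypt library. Hnf4g stood at 80.8 to 125 CPM in crypts and at 274 to 592 CPM in villi (2.09, SE 0.23, adjusted p = 1.63e-07). Gata4 (1.28, SE 0.18) and Gata6 (1.03, SE 0.16) rose too. Cdx1, the crypt-enriched paralog, stood at 198 to 257 CPM in crypts and at 60.4 to 77.8 CPM in villi (log2 fold change -1.72, SE 0.14, adjusted p = 2.13e-09). Its groups did not overlap.

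In Vil1 heterozygous mice 7 of 8 genes were called, against 64.6% of all genes. Klf4 (log2 fold change 3.24, SE 0.31), Hnf4g (1.78, SE 0.23), Gata6 (0.86, SE 0.15) and Gata4 (0.63, SE 0.20) were higher in villi, and Cdx1 (-0.93, SE 0.16) was lower. Cdx2, which is expressed along the whole crypt-villus axis, was higher in villi of Vil1 mice (0.40, SE 0.11, adjusted p = 0.00459) but not called in Rosa26 mice (-0.17, SE 0.14, adjusted p = 0.295). Klf5 fell by 0.61 in Rosa26 villi (SE 0.14) and had a value of -0.10 in Vil1 villi (SE 0.12, adjusted p = 0.46). These villus directions depend on scaling for the genes with small differences. Hnf4a was higher in villi on the TMM scale in both driver sets (0.42 in each, adjusted p = 0.0499995, just under the threshold, and 0.031) but lower as CPM of the library total, at 767 in villi and 1108 in crypts of Rosa26 mice and at 703 and 837 in Vil1 mice. The Hnf4a call was also lost in 9 of 10 fits without 1 library in Rosa26 and in 5 of 8 in Vil1 mice. Cdx2 in Vil1 mice turned likewise, with 151 in crypts and 125 in villi by library total, as did Gata4 in Vil1 mice, with 114 and 113. Klf4, Hnf4g, Gata6 and Cdx1 had the same direction on both scales in both driver sets, and Gata4 in Rosa26 mice.

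Genes that the CDX, HNF4 and GATA factors are known to regulate, listed as 25 textbook targets such as Alpi, Apoa4 and Sis, rose in 22 cases and fell in 2 of 25 in Rosa26 villi against crypts (median log2 fold change 3.87, against -0.15 over all genes). In Vil1 mice 23 rose and none fell. Apoa4, a lipoprotein gene of enterocytes, rose by 6.01 in Rosa26 mice and Alpi, the brush border phosphatase, by 5.70. Of 25 partner transcription factors of the epithelium, 13 rose and 9 fell in Rosa26 mice. Creb3l3, a factor of lipid metabolism, rose by 4.58, while Ascl2, a Wnt-dependent stem cell factor (-7.32), and Sox9, of stem and Paneth cells (-3.40), fell. Klf6 was the family member outside the 8 genes with the largest rise (2.23 in Rosa26 and 2.39 in Vil1 mice).

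**Figure D1:**
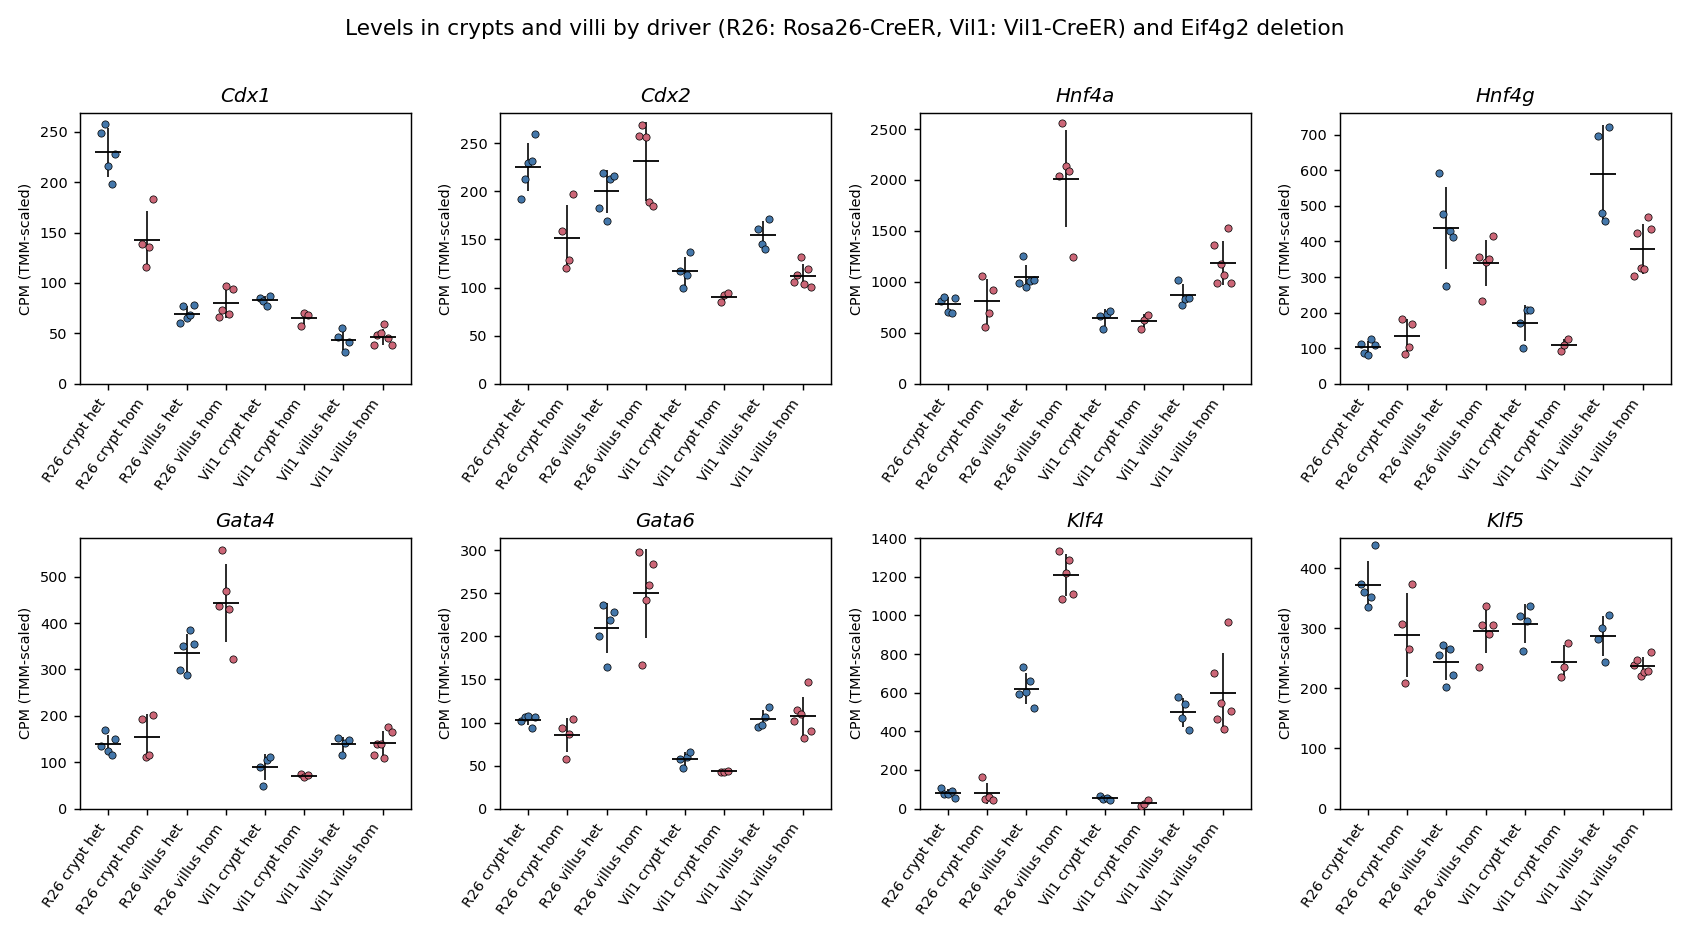
Levels of the 8 genes in crypts and villi, in TMM-scaled CPM on linear axes from 0. Each point is a library, horizontal bars are means and vertical bars SD, blue marks heterozygous (het) and red homozygous (hom) deletion. Klf4 is high in villi and low in crypts in both driver sets, and homozygous Rosa26 villi sit above heterozygous ones for Klf4 without overlap.

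Homozygous against heterozygous deletion of Eif4g2 showed lower Cdx1 and Cdx2 in crypts of both driver sets. The Rosa26 and Vil1 sets also differ in time (Day 9 and 3 Months) and count table, and these cannot be told apart from the driver. In Rosa26 crypts these were the only called members, 2 of 8 where 20.2% of all genes were called, 11.6% as lower. Cdx1 stood at 249, 257, 216, 198 and 228 CPM in heterozygous and at 138, 116, 135 and 183 CPM in homozygous crypts. The groups did not overlap, and the log2 fold change was -0.63 (SE 0.12, adjusted p = 0.00727). Cdx2 stood at 192, 213, 230, 231 and 260 CPM against 158, 121, 128 and 197 CPM, a log2 fold change of -0.53 (SE 0.14, adjusted p = 0.0273). Here 1 homozygous library overlapped the heterozygous range, and the Cdx2 call was lost when 6 of the 9 libraries were left out singly (adjusted p up to 0.104). Without homozygous replicate 1, which stood apart with an enterocyte marker sum (6 genes) of 6214 CPM against 2004 to 2412 in the other 3, Cdx1 kept -0.61 (adjusted p = 0.03) and Cdx2 had -0.55 (adjusted p = 0.0643). With a covariate for Y-linked transcripts the adjusted p was 0.064 for Cdx1 and 0.243 for Cdx2, and Klf4 was the 1 called member (1.11, adjusted p = 0.0421), where 17.2% of all genes were called.

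The other 6 genes in Rosa26 crypts lay between -0.32 (Klf5) and 0.44 (Hnf4g), with none called. Klf4 stood at 52.9 to 105 CPM in heterozygous crypts and at 161, 47.6, 60.4 and 46.5 CPM in homozygous crypts, where the high value was that of replicate 1. Its log2 fold change was 0.06 with all libraries and -0.56 without that one (adjusted p = 0.103). Hnf4a went from 0.10 to -0.05 in the same step. Crypt stem markers (5 genes, among them Lgr5 and Olfm4) summed to 3828 to 6542 CPM in heterozygous and 201 to 854 CPM in homozygous crypts. Stromal, muscle and endothelial markers (10 genes) summed to 23.4 to 818 CPM in heterozygous and 36.5 to 2002 CPM in homozygous crypts, with none of 8 tested called. The part of these markers in the Cdx1 and Cdx2 differences was not tested. Mitochondrial reads made up 6.24 to 12.4% of the counts in heterozygous and 13.7 to 25.2% in homozygous Rosa26 crypts, and 17.5 to 30.8% and 30.4 to 40.3% in Vil1 crypts. With mitochondrial genes taken out of the library sizes, Cdx1 had -0.63 and Cdx2 -0.52 in Rosa26 crypts (adjusted p = 0.0113 and 0.0377).

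In Vil1 crypts 3 of 8 genes fell, where 29.3% of all genes were called, 17.7% as lower. Cdx1 stood at 85, 82.6, 77 and 87.6 CPM in heterozygous and at 57, 70.3 and 68 CPM in homozygous crypts (log2 fold change -0.35, SE 0.09, adjusted p = 0.0224). Cdx2 stood at 117, 100, 113 and 137 CPM against 84.5, 92.1 and 94.5 CPM (-0.37, SE 0.11, adjusted p = 0.0372). Gata6, a factor also of crypt cells, stood at 57.5, 47.2, 59.7 and 66 CPM against 42.9, 42.8 and 44 CPM (-0.41, SE 0.11, adjusted p = 0.0246). None of these 3 pairs of groups overlapped, a trait not counted over all genes. All 3 were called without mitochondrial genes too. Crypt stem markers summed to 4888 to 5460 CPM in heterozygous and 284 to 523 CPM in homozygous Vil1 crypts, and their part was not tested. With 3 homozygous libraries the calls were fragile: single libraries left out ended the call for Cdx1 in 4, for Cdx2 in 6 and for Gata6 in 5 of 7 fits, and the number of called members ran from 0 to 6. Genes called in the whole table ran from 3223 to 5978 in these fits. Klf4 stood at 15.4, 21.6 and 42.4 CPM in homozygous and, just without overlap, at 43.3 to 65.3 CPM in heterozygous crypts, with a value of -0.997 (SE 0.35, adjusted p = 0.0773). Without homozygous replicate 3, its highest, the value was -1.51 and the adjusted p 0.00444. Hnf4g had -0.64 (adjusted p = 0.111), and heterozygous replicate 2, at 101 CPM against 170 to 208 in the other 3, was the low library. Without it, Hnf4g had -0.82 (adjusted p = 0.00172) and Gata4, at 49.6 CPM in that library, had -0.53 (adjusted p = 0.00326).

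Among the textbook targets, 12 of 25 fell and none rose in Vil1 crypts (median -1.29, against 0.01 over all genes), led by Slc2a2, the basolateral glucose transporter (-3.57), and Lct, lactase (-3.40). In Rosa26 crypts 1 of 25, Gucy2c (-0.64), fell and none rose. Enterocyte markers summed to 1417 to 3234 CPM in heterozygous and 639 to 1284 CPM in homozygous Vil1 crypts, and to 1572 to 2968 and 2004 to 6214 CPM in Rosa26 crypts. All of the enterocyte markers are also in the target list, here and in the comparisons below, so a like direction is no separate evidence. Muc2, a target, is also a goblet marker, and Ascl2, a partner factor, is also a stem marker. Of the partner factors, 8 of 25 fell in Rosa26 and 10 of 25 in Vil1 crypts. Atoh1, the factor of secretory precursors (-1.40 and -1.04), and Foxa3, of secretory cells (-1.49 and -1.40), fell in both. Isx, an intestine-specific homeobox factor that represses vitamin A conversion genes, rose in both (0.69 and 0.54). Of the other Gata, Klf and Cdx genes, 2 of 16 rose and none fell in Rosa26 crypts, and 5 of 17 rose and 1 fell in Vil1 crypts, Klf16 (0.46 and 0.86) among them. Paneth, enteroendocrine and tuft markers fell too, with all 5, 5 and 4 called in both driver sets.

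In Rosa26 villi, Hnf4a and Klf4 rose after homozygous deletion and no member fell, 2 of 8 where 33.2% of all genes were called, 15.0% as higher. Hnf4a stood at 989, 1259, 950, 1010 and 1020 CPM in heterozygous and at 2039, 2556, 2139, 2087 and 1249 CPM in homozygous villi. The lowest homozygous library lay just under the highest heterozygous one and the other 4 above all of them, and the log2 fold change was 0.89 (SE 0.17, adjusted p = 0.00233). Klf4 stood at 595, 731, 602, 660 and 520 CPM against 1336, 1087, 1221, 1289 and 1110 CPM, without overlap (0.91, SE 0.11, adjusted p = 2.04e-04). Both calls held in all 10 fits that left out 1 library. Gata4 had 0.35 (SE 0.14, adjusted p = 0.067) and Hnf4g -0.41 (SE 0.19, adjusted p = 0.126). Cdx1 and Cdx2, lower in crypts, had 0.15 and 0.16 in villi and were not called. Immune markers summed to 3897 to 7215 CPM in heterozygous and 1093 to 3508 CPM in homozygous Rosa26 villi, and pan-epithelial markers to 13390 to 15530 and 15510 to 20000 CPM. Goblet markers (5 genes) summed to 5329 to 13890 and 1902 to 9549 CPM, with 2 of 5 called as lower. The part of these markers in the Hnf4a and Klf4 differences was not tested.

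In Vil1 villi, 1 gene rose and 3 fell, 4 of 8 where 42.5% of all genes were called. Hnf4g stood at 696, 479, 457 and 722 CPM in heterozygous villi and, in 6 homozygous libraries, at 304 to 467 CPM with a median of 374 (log2 fold change -0.65, SE 0.17, adjusted p = 0.00858). The groups overlapped by 1 library at each end. Cdx2 stood at 161, 145, 140 and 171 CPM against 101 to 132 CPM with a median of 110 (-0.47, SE 0.12, adjusted p = 0.00509) and did not overlap. Both calls held in all 10 fits without 1 library. Hnf4a rose by 0.43 (SE 0.15, adjusted p = 0.0376), a direction it shared with Rosa26 villi, and Klf5 fell by 0.30 (SE 0.11, adjusted p = 0.0434), but these calls were lost in 6 and 7 of the 10 fits. Klf4 stood at 406 to 576 CPM in heterozygous and 411 to 967 CPM in homozygous villi (0.25, SE 0.22, adjusted p = 0.381). Immune markers summed to 2968 to 5391 against 149 to 1601 CPM, pan-epithelial markers to 10780 to 13160 against 13380 to 16630 CPM and goblet markers (5 genes) to 6753 to 11310 against 1244 to 2106 CPM. Their part in the 4 calls was not tested. Lct (-1.47) and Muc2, the goblet cell mucin (-1.63), were among 6 of 25 targets that fell in Vil1 villi. In Rosa26 villi 5 of 24 fell and 3 rose, with Mep1a, a brush border protease (-2.75), and Slc5a1, the sodium-glucose transporter (1.07), at the ends.

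Whether the effect of homozygous deletion differed between villi and crypts was tested as an interaction, called for 11.5% of all genes in Rosa26 mice, 6.68% with a higher effect in villi, and for 15.5% in Vil1 mice, 9.38% with a higher one. In Rosa26 mice it was called for 3 of 8 genes: Cdx1 (difference of log2 fold changes 0.88, SE 0.20, adjusted p = 0.0104), Cdx2 (0.78, SE 0.21, adjusted p = 0.0253) and Hnf4a (0.90, SE 0.27, adjusted p = 0.0411). All 3 effects were more positive in villi. The Cdx1 difference was called in all 19 fits without 1 library, whereas those of Cdx2 and Hnf4a were lost in 4 and 14 of them. With crypt and villus libraries of an animal matched, Cdx1 alone of these 3 was called, Cdx2 having 0.73 (adjusted p = 0.0825) and Hnf4a 0.81 (adjusted p = 0.13), and the genes called in the whole table went from 1904 to 772 (4.67%). Without mitochondrial genes the Hnf4a difference was 0.83 (adjusted p = 0.0561). In Vil1 mice it was called for Klf4 alone (1.27, SE 0.41, adjusted p = 0.0449), and that call was lost in 8 of 17 such fits and with animals matched (1.17, adjusted p = 0.109). The interaction for Cdx2 in Vil1 mice was -0.09 (SE 0.16), its effect being of like size in crypts and villi.

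**Figure D2:**
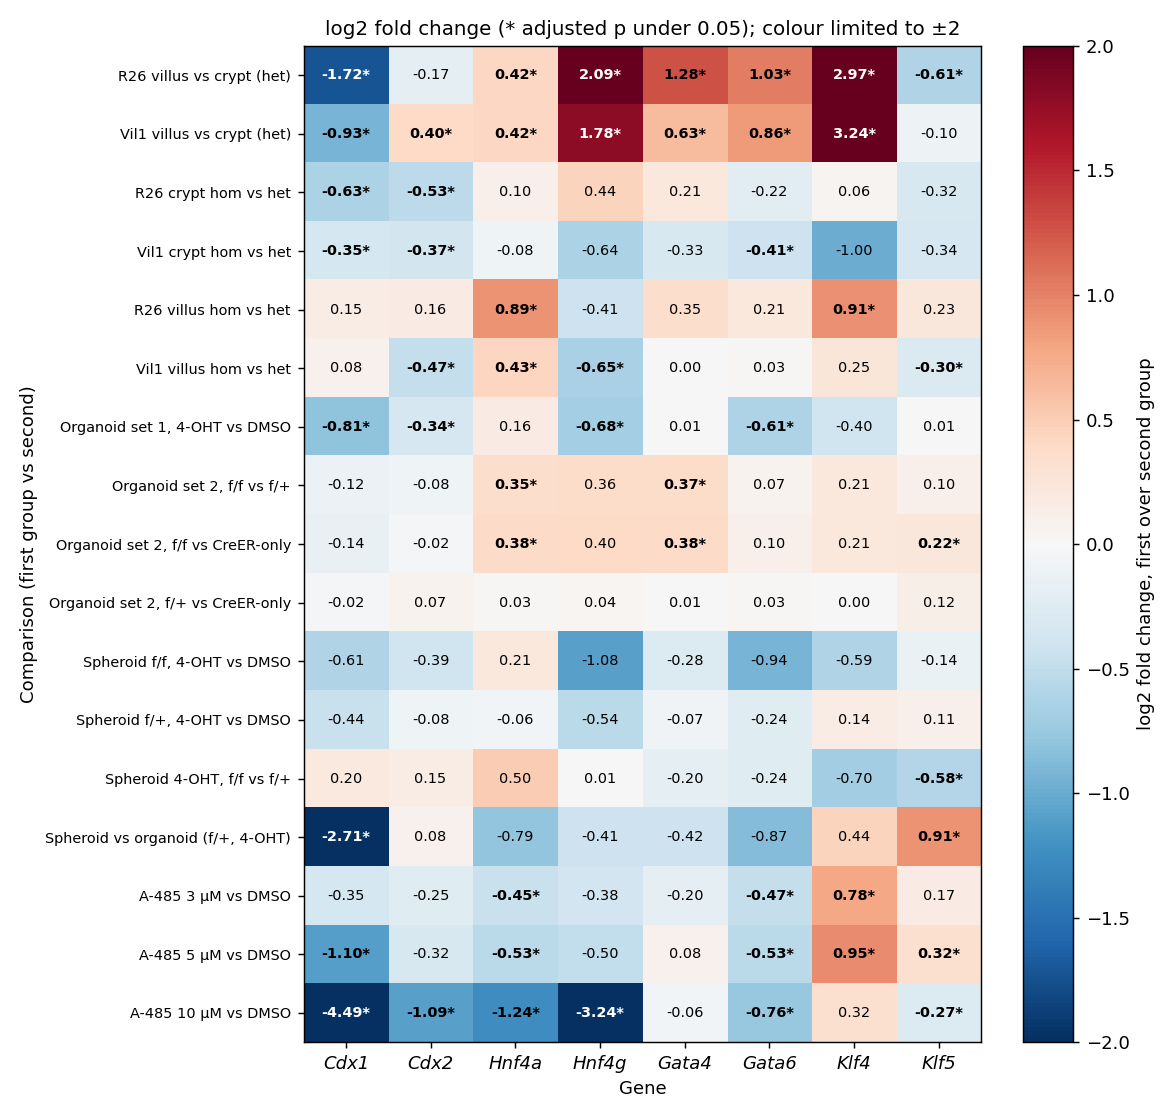
Log2 fold changes of the 8 genes (columns) in 17 comparisons (rows), with red for higher and blue for lower in the first group and an asterisk for an edgeR adjusted p under 0.05. Colours are limited to ±2. Cdx1 is lower in both crypt comparisons, with 4-OHT in the first organoids and at 5 and 10 µM A-485. Hnf4a is higher in homozygous villi of both driver sets and in flox/flox lines of the second organoid set.

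In the first organoid set, 4 of 8 genes fell with 4-OHT, where 35.4% of all genes were called, 17.2% as lower. The lines are named S6070, S6072 and S2080 and each gave both libraries. The fold changes, SE and adjusted p given for this set are from a fit that did not match lines. All are flox/flox, so effects of 4-OHT or of active CreER cannot be told apart here from loss of Eif4g2. Cdx1 stood at 177, 174 and 240 CPM with DMSO and at 103, 120 and 115 CPM with 4-OHT in this order (log2 fold change -0.81, SE 0.14, adjusted p = 0.00453). Hnf4g stood at 212, 208 and 268 CPM against 122, 165 and 143 CPM (-0.68, SE 0.14, adjusted p = 0.0102). Gata6 stood at 154, 147 and 181 CPM against 93.8, 118 and 105 CPM (-0.61, SE 0.12, adjusted p = 0.0068). All 3 genes were lower in each line, and the groups did not overlap. Cdx2 stood at 236, 238 and 243 CPM against 192, 195 and 180 CPM (-0.34, SE 0.07, adjusted p = 0.00944), also without overlap. These 4 calls held in all 6 fits without 1 library, and the Cdx2 call was lost when the A-485 libraries shared the fit (adjusted p = 0.214).

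The other 4 genes were not called in the first set. Gata4 had 0.01 (95% interval -0.17 to 0.19), Klf5 0.01 (-0.22 to 0.24) and Hnf4a 0.16 (-0.07 to 0.39). Klf4 was lower in each of 3 lines, at 41.9, 40.4 and 32.3 CPM with DMSO and 29.1, 40.2 and 18.1 CPM with 4-OHT, with a value of -0.40 (SE 0.27, adjusted p = 0.285). Textbook targets fell in 17 of 24 cases and rose in 1 (median -0.90, against 0.03 over all genes), Fabp1, the liver-type fatty acid binding protein (-2.25), Lct (-2.14) and Apoc3 (-1.75) falling most. Partner factors fell in 11 of 25 cases, among them Foxa3 (-2.36), Ascl2 (-2.11) and Atoh1 (-1.71), and rose in 2, Foxa1 (0.77) and Ehf (0.43). Of the other family members, 8 of 14 rose, among them Klf6 (1.25), Klf9 (1.15) and Gata5 (0.65). Stem markers summed to 1134 to 1595 CPM with DMSO and 194 to 248 CPM with 4-OHT, and enterocyte markers to 11160 to 14770 and 5385 to 8189 CPM.

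The second organoid set, in which every line had 4-OHT, gave other genes. Of 8, 2 were called between flox/flox and flox/+ lines, against 46.8% of all genes, and 3 between flox/flox and CreER-only lines, against 45.3%. All were rises, where 22.6% and 21.9% of all genes rose, and both comparisons share the flox/flox libraries. Hnf4a stood at 1165, 1165, 995 and 1197 CPM in flox/flox, at 911, 850, 852 and 922 CPM in flox/+ and at 877, 887, 885 and 825 CPM in CreER-only lines. The flox/flox libraries were above all others (0.35, SE 0.06, adjusted p = 3.48e-04, and 0.38, SE 0.06, adjusted p = 1.77e-04). Gata4 stood at 193, 173, 190 and 205 CPM, at 153, 148, 138 and 146 CPM and at 137, 156, 142 and 149 CPM, again with flox/flox above all others (0.37 and 0.38, SE 0.06 each, adjusted p = 1.51e-04 and 1.36e-04). Both genes kept their calls in all 8 fits without 1 library. Klf5 rose by 0.22 against CreER-only lines (SE 0.09, adjusted p = 0.0497), a call lost in 4 of 8 such fits. Hnf4g had 0.36 (adjusted p = 0.163) and 0.40 (adjusted p = 0.123), and Klf4 0.21 in both comparisons.

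Cdx1, Cdx2, Gata6 and Hnf4g (values above), which fell in the first set, were not called in the second. Cdx1 had -0.12 against flox/+ (95% interval -0.28 to 0.04) and -0.14 against CreER-only lines (-0.30 to 0.02), Cdx2 -0.08 (-0.22 to 0.05) and -0.02 (-0.15 to 0.11), and Gata6 0.07 (-0.10 to 0.25) and 0.10 (-0.08 to 0.27). The difference between the sets was not tested. Loss of 1 copy gave no call among the 8 genes, against 0.113% of all genes, with values between -0.02 and 0.12 and 16 genes called in the whole table. Stem markers summed to 1476 to 2329 CPM in flox/flox and 5809 to 7453 CPM in CreER-only lines. Enterocyte markers overlapped (4628 to 8085 and 5528 to 8906 CPM). Targets fell in 6 and rose in 2 of 24 cases against flox/+ (median -0.21), with Lct at -2.60, and fell in 10 and rose in none against CreER-only lines (median -0.55). Against flox/+, partner factors fell in 11 and rose in 8 of 25, with Foxa3 at -1.45, Ascl2 at -1.28 and Foxa1 at 0.61. Klf9 (0.80) and Klf6 (0.78) were among 6 of 13 family members that rose.

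**Figure D3:**
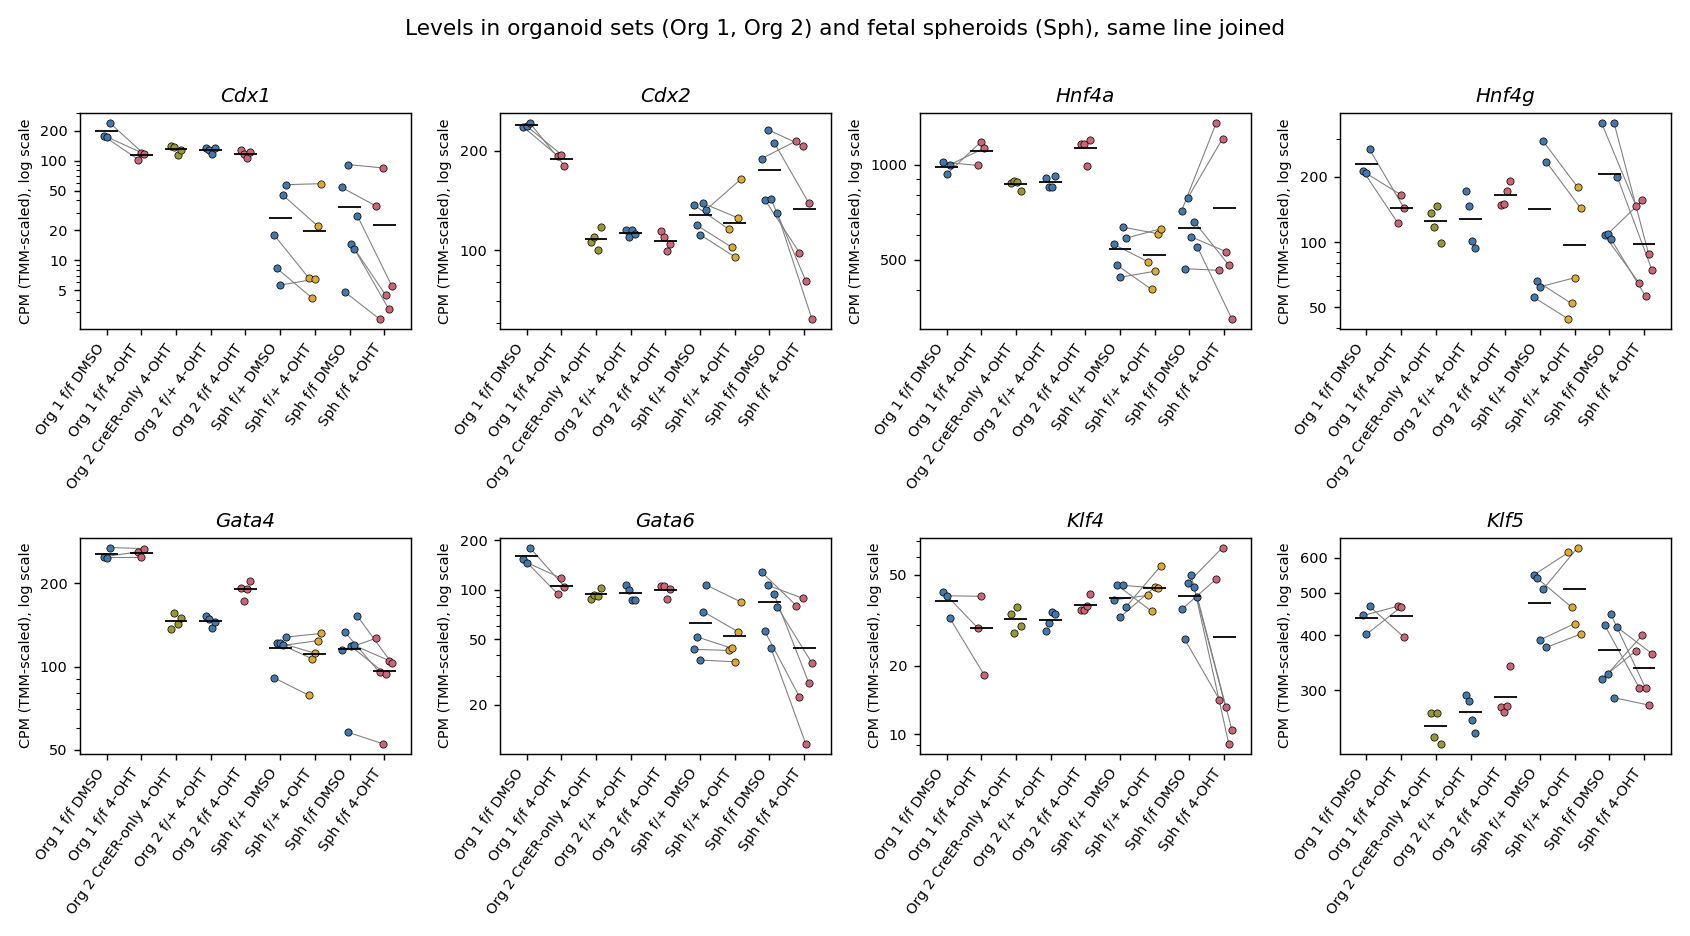
Levels of the 8 genes in the organoid sets and fetal spheroids, in TMM-scaled CPM on log axes. Each point is a library, bars are means and lines join libraries of 1 line. Spheroid lines spread widely for Cdx1, Hnf4g and Gata6, and with 4-OHT flox/flox spheroids divide for Hnf4a and Klf4 into 2 lines at high and 4 at low levels.

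Fetal spheroids are cultures of fetal intestinal epithelium that grow as hollow spheres. In flox/+ spheroids with 4-OHT, Cdx1 was lower than in flox/+ organoids with 4-OHT: it stood at 6.66, 4.20, 6.43, 21.9 and 58.7 CPM against 132, 126, 115 and 133 CPM (log2 fold change -2.71, SE 0.97, adjusted p = 0.0354). The groups did not overlap, but the call was lost in 8 of 9 fits without 1 library. Hnf4a, Gata4, Gata6, Klf5 and the uncalled Klf4 (0.44, adjusted p = 0.477) did not overlap between these groups either. Klf5 was higher, at 617, 464, 425, 633 and 403 CPM against 293, 283, 256 and 240 CPM (0.91, SE 0.16, adjusted p = 1.91e-04). With these, 2 of 8 genes were called, against 39.1% of all genes. Hnf4a (-0.79, adjusted p = 0.0584), Gata6 (-0.87, adjusted p = 0.118) and Gata4 (-0.42, adjusted p = 0.0765) had lower values, and with the flox/+ groups alone in the fit 6 of 8 members were called, where that fit called 47.9% of all genes. Pdx1, a factor of the proximal gut and pancreas, rose by 4.504 among 9 of 25 partner factors, and the stomach genes Tff2 (7.49) and Ctse (5.24) rose among 5 of 11 genes of the stomach and squamous list. Stromal markers (10 genes) summed to 3.33 to 175 CPM in these spheroids and to at most 1.78 CPM in the organoids. Crypt stem markers summed to 159 to 6377 CPM (median 169) in these spheroids and to 5428 to 7359 CPM in the organoids. Paneth markers summed to 90.1 to 2942 and 3009 to 4114 CPM, and enterocyte markers to 60.2 to 4066 and 4469 to 8813 CPM. Goblet markers were higher in the spheroids, at 5691 to 7854 against 1830 to 2633 CPM. The part of these markers was not tested. Culture type and line differ together here and cannot be told apart. Whether the difference between flox/flox and flox/+ lines with 4-OHT itself differed between spheroids and organoids was called for none of the 8 genes, against 0.0532% of all genes, and Klf5 had the smallest unadjusted p (-0.71, adjusted p = 0.262).

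In flox/flox spheroids, 4-OHT against DMSO gave no call among the 8 genes when lines were not matched, against 19.1% of all genes. The lines differed strongly before treatment, and each gave both libraries. With the line as a block, 4 of 8 genes fell, where that fit called 34.6% of all genes, 17.1% as lower. Cdx1 stood, in the order S9484-D, S9484-A, S9488-F, S9488-D, S9488-H and S9020-A, at 53.7, 91.3, 4.79, 14.6, 13.1 and 27.9 CPM with DMSO and at 34.8, 84.4, 2.56, 4.44, 3.20 and 5.46 CPM with 4-OHT, lower in 6 of 6 lines. Its value was -0.61 (adjusted p = 0.711) without and -1.28 (SE 0.31, adjusted p = 0.0134) with the block. Gata6 was lower in 6 of 6 lines as well, from 128, 107, 56.1, 44.2, 94.0 and 78.8 CPM to 80.2, 89.1, 22.4, 11.6, 27.2 and 36.0 CPM (blocked -1.19, SE 0.22, adjusted p = 0.00417, against -0.94 and 0.117 unblocked). Hnf4g (blocked -0.996, adjusted p = 0.0367, unblocked 0.132) and Cdx2 (blocked -0.51, adjusted p = 0.0338, unblocked 0.294) were each lower in 5 of 6 lines.

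Hnf4a and Klf4 did not move in 1 direction over the flox/flox spheroid lines. Hnf4a went from 715 to 1362 CPM in S9484-D and from 786 to 1212 CPM in S9484-A. It went from 468 to 462, from 591 to 530, from 661 to 480 and from 550 to 323 CPM in the other 4 lines. Klf4 went from 35.2 to 47.9 and from 46.0 to 65.7 CPM in the S9484 lines and from 26.1 to 50.0 CPM down to 9.08 to 14.2 CPM in the other 4. The S9484 lines were thus at the high end with 4-OHT for both genes, and no flox/+ line carries this prefix. Without S9484-A (replicate 3) with 4-OHT, Klf4 had -1.09 (adjusted p = 0.0218) and Gata6 -1.26 (adjusted p = 0.0326) in the unmatched fit. Enterocyte markers summed to 1167 to 8666 CPM with DMSO (median 3924) and to 31.6 to 6693 CPM with 4-OHT (median 179). Goblet markers went from 2765 to 18100 CPM with DMSO to 124 to 1408 CPM with 4-OHT, 4 of 5 called as lower. Medians of the stem sum were 282 and 75.9 CPM and of the Paneth sum 166 and 11.5 CPM, with 1 and none of 5 called. The part of these markers in the members' values was not tested. Prdm1, a factor of the immature gut epithelium (-3.14), Atoh1 (-2.56) and Foxa3 (-2.52) fell in the unmatched fit among 8 of 25 partner factors, and Klf9 (1.33) and Klf6 (1.22) rose among 5 of 13 family members.

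In flox/+ spheroids, 4-OHT against DMSO without matching of lines gave no called gene among the 8 or in the whole table by edgeR (0%). Of all genes, 15 had an unadjusted p under 0.05, and DESeq2 called none. Eif4g2 itself was not called (-0.81, SE 0.24, edgeR adjusted p = 0.9999). Its levels did not overlap, at 351.5 to 679.2 CPM with 4-OHT and 702.8 to 1225 CPM with DMSO. The edgeR fit thus missed the targeted gene, and its lack of calls does not show that the members were unchanged. Gata6 was lower in 5 of 5 lines (-0.24, SE 0.44). Between genotypes with DMSO no gene was called by edgeR either (0%), with 1084 at an unadjusted p under 0.05 and 2 called by DESeq2. Between genotypes with 4-OHT, Klf5 alone fell, 1 of 8 where 10.5% of all genes were called, 6.13% as lower. It stood at 617, 464, 425, 633 and 403 CPM in flox/+ and at 278 to 401 CPM with a median of 334 in flox/flox spheroids (-0.58, SE 0.16, adjusted p = 0.0222), with the groups apart by a narrow margin. Its value was -0.34 with DMSO (adjusted p = 0.686). With 4-OHT, stromal markers summed to 3.33 to 175 CPM in flox/+ and 0 to 6.67 CPM in flox/flox spheroids, with 2 of 5 tested called as lower, and goblet markers to 5691 to 7854 and 124 to 1408 CPM, with 4 of 5 lower. Their part in the Klf5 difference was not tested. The call was lost without flox/+ replicate 1 (adjusted p = 0.0632), flox/+ replicate 4 (0.0689) or flox/flox replicate 5 (0.051). The effect of 4-OHT was not called as different between genotypes for any of the 8 genes (1.62% of all genes). With lines matched it was called for Gata6 (-0.97, adjusted p = 0.0216), 1 of 8 where that fit called 18.3% of all genes.

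With A-485, 6 of the 8 genes fell at 10 µM, each with its largest fall there, Klf4 rose at the lower doses and Gata4 was not called at any dose. At 3 µM 3 of 8 genes were called (19.2% of all genes), at 5 µM 5 of 8 (49.6%) and at 10 µM 6 of 8 (62.0%, with 32.6% lower). The comparisons share the DMSO libraries. Cdx1 had the largest fold change. In lines S6026, S6070, S6074 and S6076 it stood at 182, 166, 188 and 166 CPM with DMSO, at 134, 162, 168 and 85.6 CPM at 3 µM, at 88.5, 92.9, 100 and 45.7 CPM at 5 µM and at 11.3, 8.38, 7.21 and 3.90 CPM at 10 µM. Every line was lower at 5 than at 3 µM and lower again at 10 µM. The log2 fold changes against DMSO were -0.35 (SE 0.26, adjusted p = 0.37), -1.10 (SE 0.26, adjusted p = 0.00195) and -4.49 (SE 0.30, adjusted p = 1.57e-09).

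Without matching of lines, Hnf4g was called at 10 µM and at neither lower dose. It stood at 144, 283, 203 and 210 CPM with DMSO, at 101, 169, 170 and 206 CPM at 3 µM, at 97.6, 170, 180 and 148 CPM at 5 µM and at 25.2, 22.4, 22.0 and 19.1 CPM at 10 µM. The DMSO, 3 and 5 µM libraries overlapped, and those at 10 µM lay far below them, with a log2 fold change of -3.24 (SE 0.24, adjusted p = 3.42e-09). With lines matched, the value at 5 µM was -0.47 (adjusted p = 0.00221) where the unmatched one was -0.50 (adjusted p = 0.0702). Its paralog Hnf4a fell at each dose. It stood at 896, 900, 1009 and 896 CPM with DMSO, at 694, 709, 753 and 560 CPM at 3 µM, at 660, 602, 696 and 602 CPM at 5 µM and at 434, 384, 405 and 343 CPM at 10 µM. The log2 fold changes were -0.45, -0.53 and -1.24 (SE 0.10 each, adjusted p = 0.00458, 3.00e-04 and 1.00e-08).

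Cdx2 stood at 173, 177, 179 and 167 CPM with DMSO and at 91.8, 76.3, 88.9 and 71.6 CPM at 10 µM (-1.09, SE 0.18, adjusted p = 3.33e-05). Line S6076 was already at 79.8 CPM at 3 µM and at 128 CPM at 5 µM, where the other 3 lines were at 157 to 184 and 138 to 149 CPM. Cdx2 was not called at 5 µM (-0.32, adjusted p = 0.144) unless lines were matched (-0.30, adjusted p = 0.0121), a fit that called 58.2% of all genes. Gata6 stood at 136, 163, 163 and 167 CPM with DMSO and at 106, 87.8, 99.0 and 79.7 CPM at 10 µM, and fell at every dose (-0.47, -0.53 and -0.76, SE 0.11 to 0.12). Gata4 did not: it stood at 172, 201, 229 and 203 CPM with DMSO and at 191, 197, 210 and 174 CPM at 10 µM, with values of -0.20, 0.08 and -0.06 and a 95% interval of -0.35 to 0.22 at the highest dose. The interval of Gata6 at that dose was -1.0005 to -0.5159, and the difference between the paralogs was not tested.

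Both Krüppel-like factors rose at 5 µM. Klf4 stood at 37.4, 25.4, 29.7 and 27.2 CPM with DMSO, at 65.2, 54.8, 54.2 and 31.6 CPM at 3 µM, at 77.4, 36.2, 67.2 and 50.8 CPM at 5 µM and at 41.9, 27.7, 42.3 and 37.8 CPM at 10 µM. It rose by 0.78 at 3 µM (SE 0.24, adjusted p = 0.0264) and by 0.95 at 5 µM (SE 0.24, adjusted p = 0.00261), and had 0.32 at 10 µM (adjusted p = 0.251), where each line was still above its own DMSO library. The call at 3 µM was lost in 5 of 8 fits without 1 library. Klf5 stood at 371, 456, 399 and 361 CPM with DMSO, at 433, 470, 524 and 556 CPM at 5 µM and at 344, 296, 347 and 335 CPM at 10 µM. It rose by 0.32 at 5 µM (SE 0.11, adjusted p = 0.0255) and fell by 0.27 at 10 µM (SE 0.11, adjusted p = 0.0476), calls lost in 5 and 6 of 8 such fits, and the second also with lines matched (adjusted p = 0.0563) and without mitochondrial genes (0.0547). Between 3 and 10 µM, 6 of 8 genes fell (49.3% of all genes called, 27.2% lower): Cdx1 (-4.14), Hnf4g (-2.86), Cdx2 (-0.84), Hnf4a (-0.80), Klf5 (-0.44) and Gata6 (-0.29). The Gata6 call (adjusted p = 0.0465) was lost in 5 of 8 fits without 1 library and without mitochondrial genes (adjusted p = 0.0609).

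**Figure D4:**
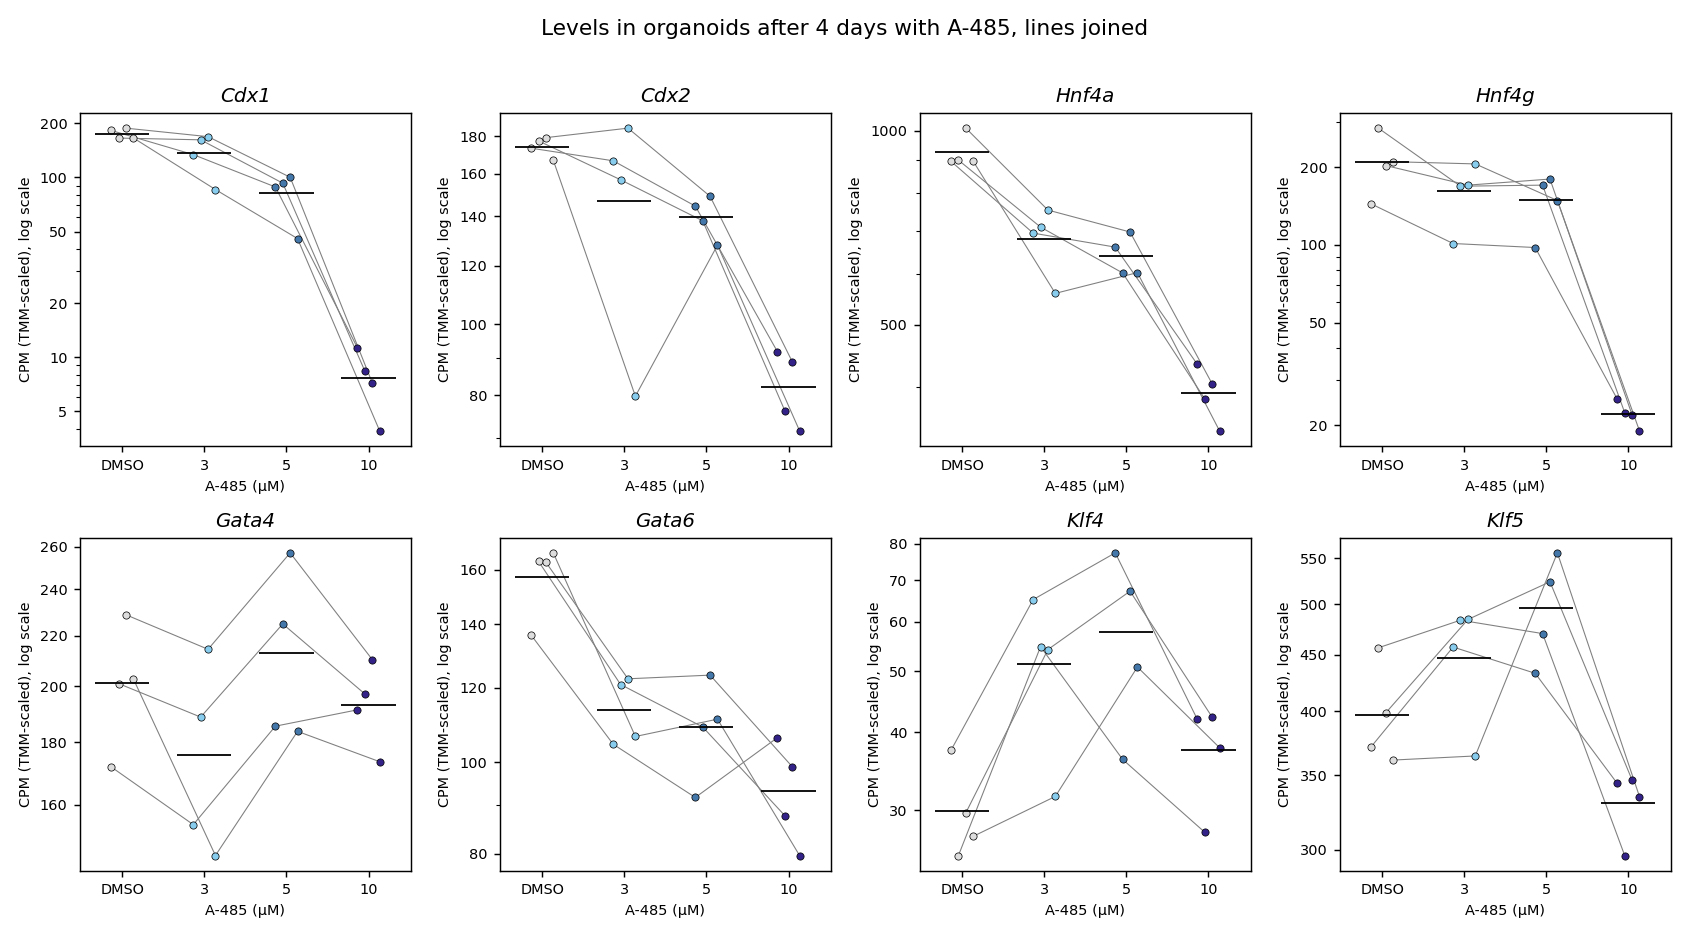
Levels of the 8 genes in organoids after 4 days with DMSO or 3, 5 or 10 µM A-485, in TMM-scaled CPM on log axes with a range of their own in each panel. Each point is a library, bars are means and lines join the 4 organoid lines. Cdx1 and Hnf4g are lowest at 10 µM by a wide margin, Gata4 changes little and Klf4 is highest at 3 and 5 µM.

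Around the 8 genes, 17 of 24 textbook targets fell at 10 µM and 4 rose (median -4.05, against -0.05 over all genes). Fabp1 (-7.49) and Lct (-7.09) were among those that fell. Those that rose included Cdh17, the intestinal cadherin (1.34), Apob (1.03) and Gpa33 (1.00), an intestinal surface antigen, of which Cdh17 is a textbook CDX2 target. At 3 µM 8 fell and 2 rose, and at 5 µM 10 fell and 7 rose. Partner factors fell in 17 of 25 cases at 10 µM, among them Ascl2 (-7.37), Atoh1 (-6.62) and Creb3l3 (-5.22), and 1 rose, Foxa1 (1.20). Of 12 family members, 4 fell, Klf11 (-2.30) and Gata5 (-2.09) among them, and 2 rose, Klf6 (1.64) and Klf3 (0.33). Stem markers summed to 6470 to 7688 CPM with DMSO and 44.5 to 77.3 CPM at 10 µM, with Olfm4 at 0 reads in all 4 libraries, and enterocyte markers to 6885 to 13310 and 204 to 568 CPM. Of 7 pan-epithelial markers 5 rose, with sums of 7257 to 7907 CPM and 12930 to 17110 CPM. The part of these shifts in the members' changes was not tested.

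Over the 21 groups, after the mean of each of 6 sets was subtracted, each gene's mean log2 CPM was compared with those of 8871 genes. Cdx1 was most like Axin2 (r = 0.957), a Wnt target, and E2f2 (0.956), a cell cycle factor. Hnf4g was most like Lrrc19 (0.989) and Pstpip2 (0.983), and Klf4 like Slc22a5 (0.984), a carnitine transporter, and Dnajb9 (0.975), a chaperone of the endoplasmic reticulum. Gata6 was most like Hadha (0.977), of fatty acid oxidation, and Lclat1 (0.968), Gata4 like Smim7 (0.957) and Nkiras2 (0.949), Hnf4a like Cerk (0.942), the ceramide kinase, and Uqcrc1 (0.935), of respiratory complex III, and Cdx2 like Tjp3 (0.927), of tight junctions, and Nags (0.901), of N-acetylglutamate synthesis. Klf5 had the weakest partners, Tsc1 (0.825) and Tox3 (0.819). Among the 8 genes, Gata4 and Klf4 were most alike (0.902), followed by Gata6 and Klf4 (0.832) and Gata4 and Gata6 (0.821). The paralogs Hnf4a and Hnf4g reached 0.741 and Cdx1 and Cdx2 0.682, while Cdx1 and Gata4 had the most negative value (-0.329). These are descriptions over group means that share villus-crypt and dose differences, with no test.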

How the data were processed

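RNA-seq libraries (92 in 21 groups) were analysed from 4 tables of raw counts per gene, with 54532 gene identifiers. The authors deposited these read counts after alignment with HISAT2 2.0.5 to GRCm38 (mm10), per the submitters' processing notes; the counting program and its strand setting are not given in the sources used here. Libraries were directional and made from poly(A) RNA, per the labels' protocols. Libraries grown in WENR medium were not used here.

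Samples were grouped by their labels. Genes were filtered by group (filterByExpr), scaled by TMM and tested with edgeR 4.0.16 (quasi-likelihood F-test, robust) in R 4.3.3, with Benjamini-Hochberg adjustment over all genes tested. Calls are adjusted p values below 0.05, with 95% intervals. Overlap of groups was looked at for the 8 genes and Eif4g2 only, so its share over all genes is not known. Fits held 2 groups for tissue genotypes and organoid set 1, 3 groups for organoid set 2, 4 for spheroids and A-485, and the 4 tissue groups of a driver for villus-crypt differences and interactions. Alternatives were DESeq2 1.42.0, its size factors, no filter, other libraries in the fit, no mitochondrial genes, covariates for Y-linked transcripts and for the series of animal numbers, a replicate block and leaving out each library. The edgeR step was tested on simulated data, where 60% of genes changed by a log2 of 1 and 95% of those changed by 2 were recovered for Rosa26 crypts (15561 genes). Only 100 genes were changed at each size, against 3198 called in the data. Differences as small as those of Cdx1 and Cdx2 there were not simulated. Total counts are in the text, and counts of the 8 genes ran from 35 to 52981 per library.

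Same-line libraries pair the first organoid set, spheroids and A-485 by the labels, and a number in the library names pairs crypts with villi. The r of deviations was 0.317 to 0.501 in the first organoid set and 0.382 to 0.856 in spheroids. It was 0.057 to 0.319 for A-485 doses against DMSO. For crypts with villi of heterozygous mice it was 0.011 to 0.162 in the Rosa26 and 0.058 to 0.307 in the Vil1 set. Members and gene lists were chosen with earlier results of these data known. Genes named from lists are the up to 3 called genes with the largest rise and fall, at a mean log2 CPM of at least 3.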

Additional observations from a re-analysis of the deposited data

Results flagged for a closer look

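A single library lay far from the rest of its group in 8 of 144 groups of values tested with Dixon's ratio, and chance gives about 1 in 20. Klf4 in homozygous Rosa26 crypts was highest in replicate 1, at 160.9 CPM, with 60.39 CPM in the next library. Hnf4a was highest at 1259 CPM in replicate 2 of heterozygous Rosa26 villi (next 1020) and at 1009 CPM in replicate 3 of the A-485 DMSO group (next 900.1). Hnf4a was lowest at 994.9 CPM in replicate 3 of the flox/flox lines (next 1165) and at 824.9 CPM in replicate 4 of the CreER-only lines of the second organoid set (next 877). Klf5 was highest at 340.6 CPM in replicate 4 of those flox/flox lines (next 276.2). Gata6 was lowest at 136.4 CPM in replicate 1 of the A-485 DMSO group (next 162.9), and Gata4 at 91.17 CPM in replicate 1 of flox/+ spheroids with DMSO (next 119.3).

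The effect of homozygous deletion differed between villi and crypts, by an interaction test in edgeR, for Cdx1 (0.88), Cdx2 (0.78) and Hnf4a (0.90) in Rosa26 mice and for Klf4 (1.27) in Vil1 mice, on the log2 scale. With crypts and villi matched by animal, the difference was called for Cdx1 and for none of the other 3.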

How the results depend on the processing

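Of 1078 log2 fold changes of the 8 genes under other settings, 995 kept direction and call, and the 23 that turned were of values not called. The number of called members was 2 in Rosa26 crypts and 1 without the filter and 1 with the Y-linked covariate, the latter being Klf4 and neither Cdx gene. It was 3 in Vil1 crypts and 6 by DESeq2, 1 with the replicate block, and 0 to 6 without 1 library. In those fits without 1 library, 3223 to 5978 genes were called in the whole table. With the replicate block it was 4 for flox/flox spheroids (34.6% of all genes called) and 0 between spheroid genotypes with 4-OHT. With the block it was also 1 for the spheroid (18.3%) and Rosa26 (4.67%) interactions and 0 for the Vil1 interaction, which was 0 without the filter too. Between spheroids and organoids it was 1 without the filter, 6 with the 2 groups alone (47.9% of all genes called) and 6 with the block. The genes called in the whole table move with the setting too, so a member count alone is no result about the members. The block changed further calls, given in the report where lines or library numbers pair the samples; elsewhere samples share only a number, and the report's values are without it. Without 1 library, called members ran from 1 to 3 in Rosa26 crypts, 2 to 3 in the villi, 2 to 4 in Vil1 villi, 2 to 3 and 2 to 5 for flox/flox against flox/+ and CreER-only organoids, 0 to 2 for flox/flox spheroids and between genotypes with 4-OHT, 2 to 3, 4 to 5 and 5 to 6 at 3, 5 and 10 µM A-485, 5 to 7 between 10 and 3 µM and in Vil1 villi against crypts, 6 to 7 in Rosa26 mice, 1 to 4 and 0 to 1 for the interactions, and 1 to 3 between spheroids and organoids. The genes called in the whole table moved in these fits as well, for example from 1937 to 4732 in Rosa26 crypts and from 5163 to 6675 in Vil1 villi.

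Turned values under other settings were, for Rosa26 crypts, Klf4 -0.0067 with other libraries and -0.15 with the block, and for Rosa26 villi Cdx1 -0.0495 with the covariate. In Vil1 villi Gata4 had -0.0184 with DESeq2 size factors and -0.0186 by DESeq2, -0.17 with the block, and Gata6 -0.0629 with the block. In the first organoid set Gata4 had -0.013 and -0.0104 and Klf5 -0.0126 and -0.0102 with these 2 settings. For flox/+ against CreER-only lines Klf4 had 0.0031 with other libraries and 0.0067 with the block. Between spheroid genotypes with 4-OHT, Cdx1 had -0.29 with the block and Hnf4g -0.0272 with DESeq2 size factors, -0.0268 by DESeq2, -0.0134 with other libraries and -0.0068 without mitochondrial genes. With DMSO, Cdx1 had -0.0028 and Gata4 -0.14 with the block, and Gata4 -0.0102 without mitochondrial genes. The Vil1 interaction of Hnf4g was -0.13 and Cdx2 between spheroids and organoids -0.0567 with the block. The cause was not tested.

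Without 1 library, the turned values ran as follows. Tissue: Hnf4a -0.0537 to 0.23 and Klf4 -0.56 to 0.26 in Rosa26 crypts, Hnf4a -0.17 to 0.0043 in Vil1 crypts, Cdx1 -0.0641 to 0.20, Gata4 -0.0906 to 0.0612 and Gata6 -0.10 to 0.0909 in Vil1 villi, and Hnf4g -0.10 to 0.19 for the Vil1 interaction. Organoids: Gata4 -0.0153 to 0.0471 and Klf5 -0.0506 to 0.0821 in the first set, Cdx2 -0.0558 to 0.027 for flox/flox against CreER-only, and for flox/+ against CreER-only Cdx1 -0.079 to 0.0206, Hnf4g -0.13 to 0.17, Gata4 -0.0251 to 0.0364, Gata6 -0.0341 to 0.0738 and Klf4 -0.0662 to 0.0676. Spheroids: Hnf4a -0.0628 to 0.35 in flox/flox, Cdx1 -1.45 to 0.0458, Hnf4a -0.14 to 0.0173, Gata4 -0.15 to 0.0299 and Gata6 -0.48 to 0.0331 in flox/+, Cdx1 -0.96 to 1.21, Cdx2 -0.0287 to 0.29 and Hnf4g -0.17 to 0.34 between genotypes with 4-OHT, and Cdx1 -0.20 to 0.85, Gata4 -0.0841 to 0.15 and Klf4 -0.0499 to 0.14 with DMSO. Their interaction gave Cdx1 -1.33 to 0.84 and Hnf4a -0.0027 to 0.41, spheroids against organoids Cdx2 -0.0574 to 0.15, and the interaction with culture type Cdx1 -0.85 to 1.298 and Hnf4a -0.14 to 0.29. Gata4 ran from -0.0224 to 0.15 at 5 µM and from -0.13 to 0.0055 at 10 µM A-485.

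Counts of genes called over the whole table moved by over 1.5 times from 4504 to 2967 in Rosa26 villi with the covariate, from 5422 to 3079 in the first organoid set with other libraries, from 16 to 39, 145 and 30 for flox/+ against CreER-only lines without the filter, by DESeq2 and with the block, and from 2864 to 4649 in flox/flox and 0 to 1 in flox/+ spheroids with the block. Between spheroid genotypes 1577 became 880 with other libraries and 140 with the block. The Rosa26 interaction had 1904, and 1258, 2891 and 772 without the filter, by DESeq2 and with the block, and the spheroid interaction 243, and 124, 572 and 2758. The culture type interaction had 8, and 4 without the filter and 135 by DESeq2. Depth limits Cdx1 most, at 10 µM A-485.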
